A study of Oryza sativa with 4 samples.

Results

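The distal long arm of rice chromosome 11 was taken as every OsMADS27 peak on that chromosome with a summit at or above 20 Mb. It held 1996 of the 72738 peaks of replicate 1 and 2014 of the 73366 peaks of replicate 2. The arm was compared with the adjoining stretch of chromosome 11 from 14 to 20 Mb (996 and 994 peaks) and with the distal 9 Mb of chromosome 12 (1666 and 1662 peaks). All 4 libraries were made from transgenic indica rice, cultivar Pusa Basmati 1, in which N-terminally 3xMyc-tagged OsMADS27 is overexpressed. The tissue was regenerating seedlings on diluted Murashige-Skoog medium, without treatment. The 2 pulled-down libraries were made with Myc-Trap agarose, a bead-bound binder of the Myc tag. The 2 input libraries are sheared chromatin of the same genotype and served as the control of the same number. Every library thus carries the transgene, and plants without the tag were not analysed here. The labels used here name neither the promoter of the transgene nor how many lines or plants were taken.

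OsMADS27 is a transcription factor of the MADS-domain family, whose members bind DNA as dimers at CArG boxes, short AT-rich motifs. It is known for a part in root growth and in the response of rice to nitrate. The ends of chromosomes 11 and 12 of rice are known for genes arranged in tandem, among them many nucleotide-binding leucine-rich repeat genes and receptor-like kinase genes of plant immunity. In such an arm, reads from one copy of a sequence can match another copy, and transposable elements between the genes add further repeats. No genome of the build of the lists was used here, so peaks are given by position, no gene, motif or repeat was assigned to them, and the richness of the arm in tandem families was not checked. Coordinates are 1-based as in the lists. Their build is not named by the labels or headers used here.

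Kept tags, those left after the removal of excess duplicates, numbered 136923044 and 130482505 in the pulled-down libraries and 131452322 and 127964706 in the inputs. The lists describe 1 condition, so no test between groups was possible. Values of both lists are given side by side, with 95% intervals that cover counting error only. Neighbouring peaks are not independent, so these intervals are too narrow as a measure of variation along the genome. Over 1440 shared peaks of the arm with summits at most 50 bp apart, the pulled-down tags of the replicates differed with 0.553 times the variance expected from Poisson sampling, and their backgrounds with 0.763 times. Over the whole series the values were 0.571 and 0.761. Differences this small are below sampling noise, although the limit on duplicate tags and the choice of peaks found in both lists lower them. The lists were therefore counted as 1 sample read in 2 lists, with no SD, and likeness between them is not evidence from separate plants.

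The arm was denser in peaks than either comparison region. It held 222 peaks per Mb in replicate 1 (95% exact Poisson interval 212 to 231) and 224 in replicate 2 (214 to 234). Chromosome 11 from 14 to 20 Mb held 166.0 (156 to 177) and 166 (156 to 176), and distal chromosome 12 held 185 (176 to 194) and 185 (176 to 194). Over all sequences the density was 194 and 196 per Mb. The arm therefore exceeded the adjoining stretch 1.33-fold and 1.35-fold, and distal chromosome 12 1.20-fold and 1.21-fold. The intervals of the arm did not overlap those of either region. The arm spans 9.01 Mb up to its last peak, which is 2.41% of the listed sequence, and held 2.74% and 2.75% of the peaks.

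Few peaks of the arm stood over a low input background. The background is the number of input tags expected over the summit, and its genome-wide average was 16.4 and 16.0 tags. The lowest background of either list was 1.00 times that average. At peaks listed with this lowest value the local input may therefore be lower than given. Peaks at under 2 times that average numbered 72 (3.61%, 95% Wilson interval 2.87 to 4.52%) and 78 (3.87%, 3.11 to 4.81%) in the arm, beside 3.72% and 3.99% of all peaks. For these low-background peaks the density of the arm over that of the adjoining stretch was 1.14 in replicate 1 and 0.999 in replicate 2. Against distal chromosome 12 it was 1.01 and 1.10. In each comparison the ratio was close to 1 in one list and above it in the other. With so few peaks these ratios are imprecise, and the interval of the share in the arm took in that of the series.

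Along the arm the peaks were unevenly placed. The 18 full windows of 500 kb held 35 to 172 peaks in replicate 1 (median 115.5) and 29 to 178 in replicate 2 (median 115), against a median of 88 over all 740 windows in both lists. In each list 13 of the 18 windows were above that median. The 12 windows from 14 to 20 Mb held 29 to 115 and 34 to 115 peaks, with medians of 87 and 93. The 17 windows of distal chromosome 12 held 29 to 183 and 29 to 178, with medians of 72 and 73. The ranges of all 3 regions overlapped, and the spread within the arm was far wider than the step between regions. The counts of the lists differed by at most 16 peaks in any window of the arm.

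The densest window ran from 26 to 26.5 Mb, with 172 and 178 peaks, followed by 20 to 20.5 Mb with 170 in each list and 28 to 28.5 Mb with 149 and 143. The first ranks 70 among the 740 windows of the series. The sparsest window, 21.5 to 22 Mb, held 35 and 29 peaks and ranks 674. Next came 24.5 to 25 Mb with 53 and 58, and 23 to 23.5 Mb with 62 and 63. Sparse and dense windows adjoined: the sparsest one lay beside the window from 21 to 21.5 Mb, with its 147 and 135 peaks.

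The 20 Mb boundary fell beside a dense window. The window just outside the boundary, from 19.5 to 20 Mb, held 77 peaks in both lists, and the window just inside 170. The next window, from 20.5 to 21 Mb, held only 91 and 90. Within the arm, the step from the window at 21 to 21.5 Mb to that at 21.5 to 22 Mb was larger than the step at the boundary. The last peak before 20 Mb spanned 19943506 to 19943562 in replicate 1, with 200 tags and a fold enrichment of 2.68, and was listed in replicate 2 with 166 tags and a fold of 2.44. The first peak after it was not the same in the lists. In replicate 1 it began at 20016150 (170 tags, fold 2.74) and had no partner, and in replicate 2 it began at 20056584 (196 tags, fold 1.91).

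**Figure D1:**
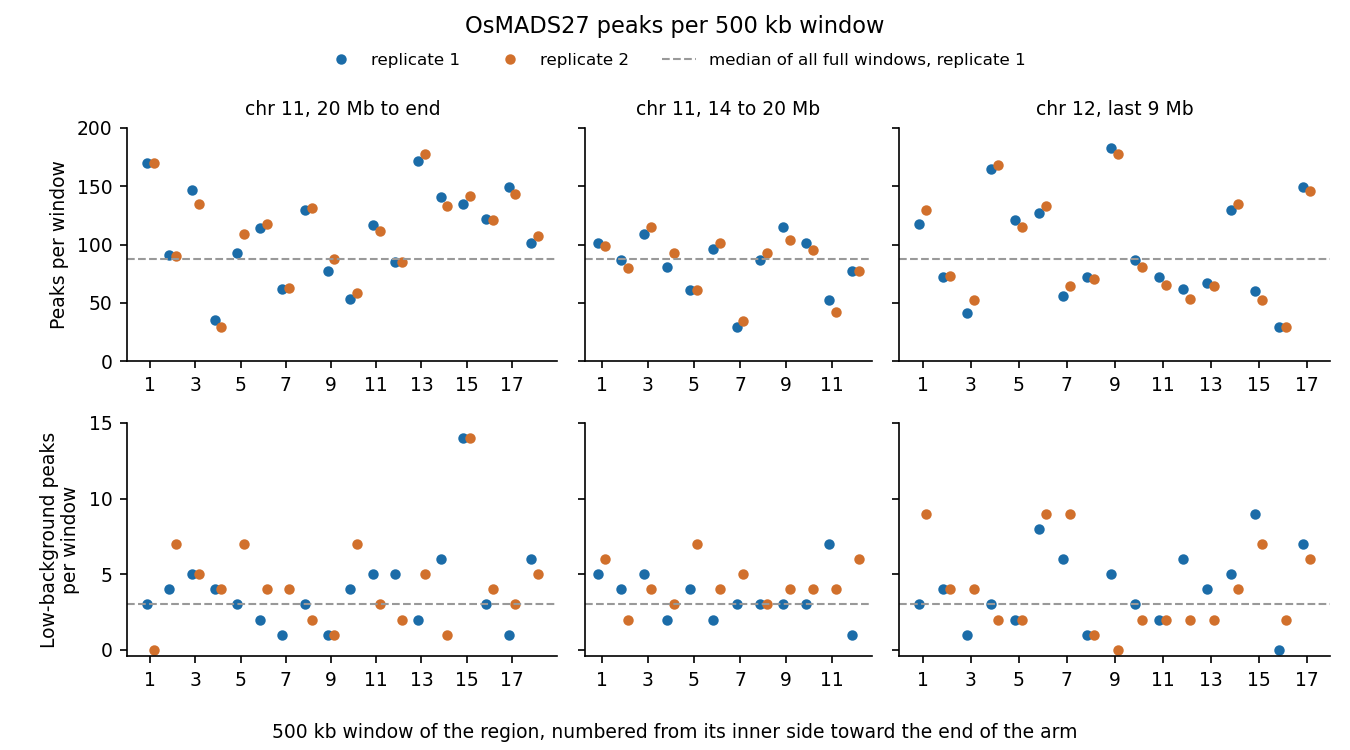
Peaks per 500 kb window (top) and low-background peaks, those below 2 times the average input, per window (bottom), for the chromosome 11 arm and both comparison regions; each point is 1 window in 1 list. The windows of the arm reach from 29 to 178 peaks, and window 15 of the arm holds 14 low-background peaks in each list.

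Fold enrichment in the arm was low and close to that of the series. The fold is the pulled-down tag number over the summit divided by the background, each plus 1, as the authors' software gave it. Replicate 1 had a median of 1.82, with quartiles of 1.54 and 2.15, and replicate 2 one of 1.87, with 1.55 and 2.21. The medians were 1.78 and 1.84 from 14 to 20 Mb, 1.79 and 1.81 on distal chromosome 12, and 1.79 and 1.83 over all peaks. The arm was 1.02 times as high as all peaks in each list, less than the step from replicate 1 to replicate 2 within the arm. A fold of at least 2 was reached by 693 peaks (34.7%) and 777 (38.6%), beside 32.7% and 36.5% of all peaks. A fold of at least 3 was reached by 52 (2.61%, Wilson interval 1.99 to 3.40%) and 64 (3.18%, 2.50 to 4.04%), beside 2.15% and 3.03% of all peaks.

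The background at the peaks of the arm was as high as elsewhere. Its median was 8.64 and 8.50 times the genome-wide average, against 8.58 and 8.56 over all peaks and 7.64 and 7.69 from 14 to 20 Mb. It exceeded 10 times the average at 815 (40.8%) and 816 (40.5%) of the peaks, beside 40.1% and 40.3% of all peaks. At least 450 tags, near the ceiling of 500 that a position can hold, were counted at 105 (5.26%) and 80 (3.97%) peaks, beside 5.68% and 5.14%. These near-ceiling peaks were most frequent in the window from 27 to 27.5 Mb, which held 18 and 15.

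Since the fold falls as its denominator rises, folds were also compared within bands of background. Under 2 times the average the median fold of the arm was 2.55 and 2.49, against 2.37 and 2.47 for all peaks of that band. From 2 to 5 times it was 2.2 and 2.27, against 2.15 and 2.21, and from 5 to 10 times 1.95 and 2.02, against 1.93 and 1.98. From 10 to 15 times it was 1.69 and 1.73, against 1.66 and 1.69. At 15 times and above it was 1.38 and 1.44, against 1.36 and 1.40. The arm was thus the higher in every band of both lists, by steps that were mostly no larger than those between the lists. The quartiles of the arm and of all peaks overlapped throughout.

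**Figure D2:**
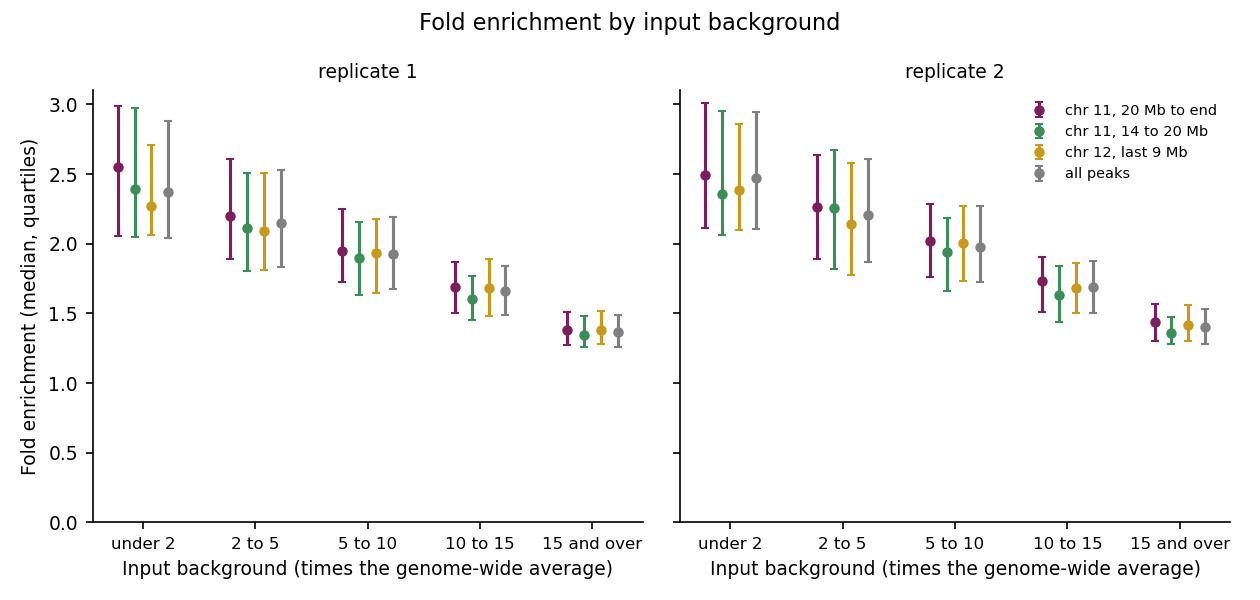
Fold enrichment (median as a point, quartiles as bars) in 5 bands of input background, for the chromosome 11 arm, both comparison regions and all peaks, in each list. Medians fall from 2.55 in the lowest to 1.38 in the highest band of the arm in replicate 1, and the quartiles of the regions overlap in every band.

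Of the peaks of the arm, 1558 (78.1%, Wilson interval 76.2 to 79.8%) of replicate 1 and 1548 (76.9%, 75.0 to 78.7%) of replicate 2 had a partner in the other list, beside 77.2% and 76.2% of all peaks. A partner overlapped by at least 50% of the shorter peak. From 14 to 20 Mb the shares were lower, at 72.1% (69.2 to 74.8%) and 72.2% (69.4 to 74.9%). On distal chromosome 12 they were 76.1% and 75.3%. Paired summits of the arm lay a median of 2 bp apart, and 80.7% within 10 bp. Across the 1558 pairs Spearman's rho was 0.80 for the fold and 0.97 for the background; pairs share libraries and background, so these are descriptions. Folds of the lists more than 1.5 times apart were found at 30 pairs (1.93%), beside 1.5% of all pairs.

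Peaks with and without a partner differed in strength more than in fold. In replicate 1 the 438 peaks without a partner had a median of 197 tags, a width of 65 bp and a −log10 q of 8.84, and the shared ones 297 tags, 95 bp and 15.6. In replicate 2 the 466 without a partner had 203.5 tags, 62 bp and 10.9, and the shared ones 285 tags, 96 bp and 16.1. Their median folds were 1.78 against 1.84 in replicate 1 and 1.86 against 1.87 in replicate 2. At low background few peaks recurred, with a partner for 25 of 72 (34.7%) in replicate 1 and 25 of 78 (32.1%) in replicate 2. This was so over the whole series, where 39.4% and 36.9% of low-background peaks had a partner. The shares were 46.5% and 42.3% on distal chromosome 12, and 19.0% and 23.1% from 14 to 20 Mb. A peak absent from one list was not shown to lack enrichment there. The highest fold without a partner was 3.94 in replicate 1 (20352626 to 20352681, 125 tags over a background of 29.7). In replicate 2 it was 4.41 (27558747 to 27558803, 89 tags over 19.0).

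Folds of at least 3 in both lists at once were reached by 20 of the 1558 shared peaks of the arm (1.28%, Wilson interval 0.833 to 1.97%), beside 0.778% of all shared peaks. Distal chromosome 12 held 7 of 1267 (0.552%, 0.268 to 1.14%), and the stretch from 14 to 20 Mb 5 of 718 (0.696%, 0.298 to 1.62%). These intervals overlapped. Folds of at least 2 in both lists were reached by 427 (27.4%), beside 25.4% of all shared peaks.

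The 15 shared peaks of the arm with the highest smaller-of-both fold spread from 20244591 to 28928356. They had folds of 3.06 to 4.56 in replicate 1 and 3.08 to 4.90 in replicate 2, and were 50 to 177 bp wide. Their backgrounds were 1.03 to 5.54 times the average in replicate 1, all below the arm's median of 8.64. The choice by fold favours low backgrounds, since the background is its denominator.

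The strongest peak, at 22338244 to 22338305, belonged to a small group over little background. Replicate 1 listed 132 tags (Poisson interval 110 to 157, as for the tags that follow) with a background of 27, and replicate 2 listed 119 (98.6 to 142) with 23, with folds of 4.56 and 4.90. Within 5 kb of it each list held 4 peaks, and all 4 were shared. The peak at 22341925 to 22341976 held 65 tags (50.2 to 82.8) and 53 (39.7 to 69.3) over 17 and 16, with folds of 3.52 and 3.12. Beside it, 22342108 to 22342160 held 74 (58.1 to 92.9) and 56 (42.3 to 72.7) over 16.4 and 20, with folds of 4.13 and 2.66. At the other side, 22337852 to 22337906 held 99 and 107 tags over 39 and 28, with folds of 2.40 and 3.65. The fold of 2 of the 4 peaks differed by more than 1.5 times between the lists. Tag intervals of the lists overlapped at the 3 peaks given with theirs.

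Near the end of the arm, 28928306 to 28928356 held 92 tags (74.2 to 113) and 90 (72.4 to 111) over 21 and 22. Its folds of 4.06 and 3.88 rank 15 among all shared peaks of the series by the smaller value. The peak at 28707686 to 28707739 held 122 tags (101 to 146) and 114 (94 to 137) over 33 and 29, with folds of 3.47 and 3.76. In replicate 1 its nearest neighbour lay 27748 bp away, far beyond the usual spacing. Its tag numbers, 122 and 114, were however found at 12 shared peaks of the series on 8 sequences, with folds from 1.79 to 3.47 in replicate 1.

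A pair of low-background peaks lay near 21.1 Mb. At 21117807 to 21117858 there were 97 tags (78.7 to 118) and 98 (79.6 to 119) over 30 and 31, with folds of 3.04 and 3.03. At 21168959 to 21169076 there were 66 (51.0 to 84.0) and 68 (52.8 to 86.2) over 19 and 16. The folds there were 3.22 and 3.98: the tags were alike and the listed background differed. In replicate 2 that background was 1.00 times the average, the lowest value in the lists, so the difference in local input is not known. At 27934774 to 27934824 there were 107 tags (87.7 to 129) and 104 (85.0 to 126) over 32 and 29, with folds of 3.14 and 3.43.

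Other high folds stood over a background of several times the average. The peak at 28523453 to 28523508 held 253 (223 to 286) and 249 (219 to 282) tags over 75 and 70, with folds of 3.21 and 3.45. At 22715516 to 22715583 there were 303 (270 to 339) and 286 (254 to 321) over 91 and 86, with folds of 3.17 and 3.24. At 24816648 to 24816822, the widest of the 15, there were 188 (162 to 217) and 196 (170 to 225) over 56 and 55, with folds of 3.18 and 3.45. At each of these 3 the tag intervals of the lists overlapped.

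The remaining named peaks of high fold had folds between 3.06 and 3.27 in replicate 1 and between 3.08 and 3.6 in replicate 2. They lay at 20244591 to 20244723, 28639003 to 28639135, 23877920 to 23877979, 24428984 to 24429035, 21119223 to 21119285 and 23889800 to 23889859. The peaks at 23877920 and 23889800 had equal tag numbers, 292 in replicate 1 and 263 in replicate 2, equal widths of 60 and 58 bp, and folds of 3.09 and 3.06 in replicate 1. They are 11880 bp apart, and are taken up below with other such pairs.

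**Figure D3:**
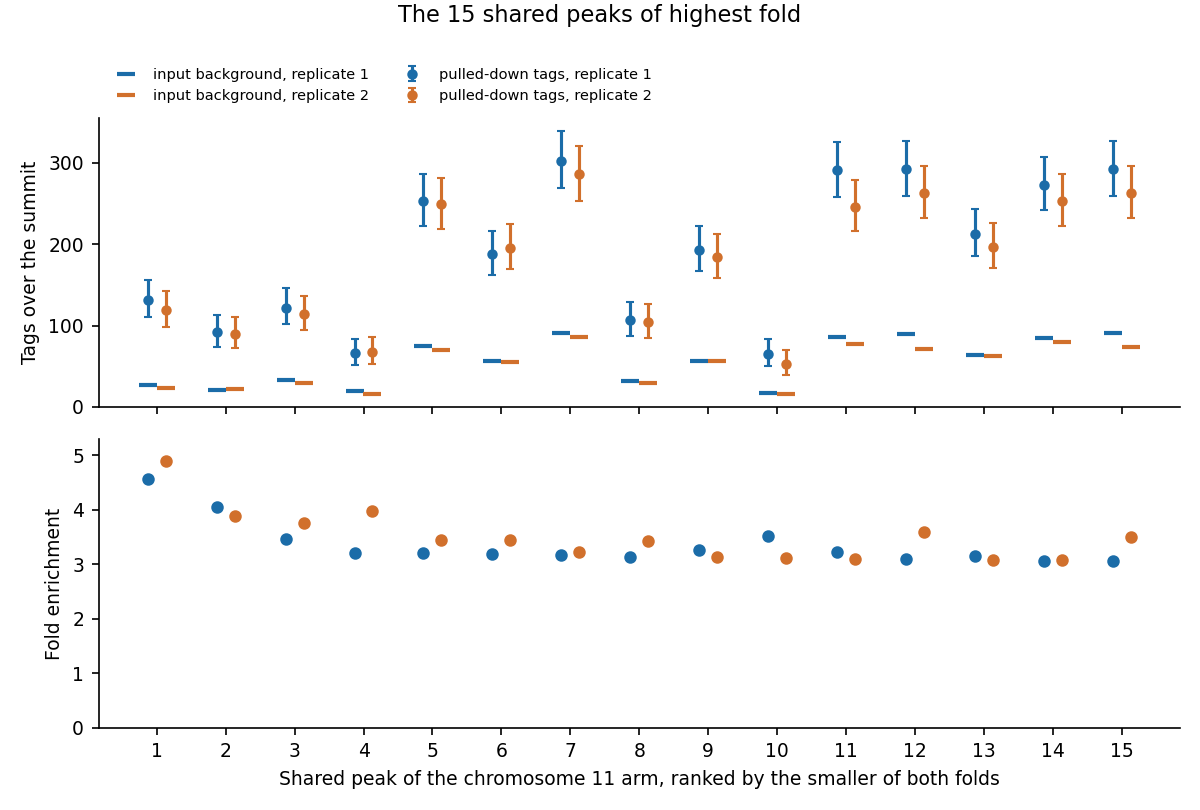
Pulled-down tags with 95% exact Poisson intervals and input background as dashes (top), and fold enrichment (bottom), in each list for the 15 shared peaks of the chromosome 11 arm ranked by the smaller of both folds. The tags stand above the background at each peak, and peak 1 has folds of 4.56 and 4.90 while peak 15 has 3.06 and 3.50.

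Low-background peaks gathered in 1 window. From 27 to 27.5 Mb each list held 14 of them, against medians of 3.5 and 4 in the windows of the arm and 3 over all windows of the series, where this window ranks 4. Most were weak. Their folds ran from 1.60 to 2.61 in replicate 1 (median 2.19, 34 to 84 tags) and from 2.01 to 3.50 in replicate 2 (median 2.38, 36 to 93 tags). A partner was found for 6 in replicate 1 and 7 in replicate 2. In replicate 1, 27272245 to 27272373 and 27352783 to 27352911 had equal tags (84), background (31.0) and fold (2.55), and neither had a partner. Whether they are copies that share reads was not tested. The low-background peaks were strung over 454 and 424 kb of the window. The peak at 27032372 to 27032477 held 45 tags (32.8 to 60.2) and 53 (39.7 to 69.3) over 16.4 and 17, with folds of 2.54 and 2.94. At 27326470 to 27326541 there were 50 (37.1 to 65.9) and 41 (29.4 to 55.6) over 17.7 and 17, with folds of 2.61 and 2.29. At 27253846 to 27253906 there were 75 (59 to 94) and 82 (65.2 to 102) over 29.5 and 28.4, with folds of 2.39 and 2.77. In the same window replicate 1 also listed the most near-ceiling peaks of the arm. One of them, with its summit at 27064507, held 500 tags over a background of 416 in replicate 1. Very low and very high backgrounds thus lay within 500 kb of each other.

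Among shared peaks, 18 of the arm were at low background in both lists (1.16%, Wilson interval 0.732 to 1.82%), beside 1.45% of all shared peaks. Distal chromosome 12 held 27 (2.13%, 1.47 to 3.08%) and the stretch from 14 to 20 Mb 6 (0.836%, 0.384 to 1.81%).

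Ranking by significance or by width brought up further peaks. By the smaller −log10 q of both lists the leading peaks were 25977503 to 25977566 and 28631732 to 28631804. They had equal tag numbers, 438 in replicate 1 and 421 in replicate 2, although they lie over 2 Mb apart, with folds of 2.87 and 3.09 at the first and 2.72 and 2.98 at the second. These tag numbers occurred together at 30 shared peaks of the series, on 11 of its sequences. By contrast, the numbers of the peak ranked 3, at 28040232 to 28040295 (326 and 323 tags over 94 and 103, folds 3.31 and 3.06), occurred at no other shared peak. The peak ranked 4 was 22715516 to 22715583, already given among those of highest fold. The fifth, at 22405736 to 22405794, held 480 tags in both lists, near the ceiling, with folds of 2.44 and 2.36.

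Peaks of at least 200 bp numbered 143 (7.16%) and 156 (7.75%), beside 7.07% and 7.74% of all peaks. The widest shared peak, 23764041 to 23764619, was 579 bp in replicate 1 and 577 in replicate 2, with 427 and 403 tags and folds of only 1.47 and 1.43. The next ones, at 28384524 to 28385047, 26023022 to 26023513 and 23780521 to 23781010, were 490 to 528 bp wide. The fifth, at 23995130 to 23995537, was 408 bp in both lists. Of the 5, only 26023022 to 26023513 had folds near 2, at 2.06 and 1.96. It also had the lowest background of them, 6.76 and 6.75 times the average.

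Peaks of the arm lay close together. The median distance from a summit to the nearest other summit was 313 and 291.5 bp, against 337 and 325 bp over all peaks. It was 406 and 433 bp from 14 to 20 Mb and 331 and 326.5 bp on distal chromosome 12. Under 2 kb from a neighbour were 1858 peaks (93.1%, Wilson interval 91.9 to 94.1%) and 1881 (93.4%, 92.2 to 94.4%), beside 91.2% and 91.7% of all peaks. The shares were 86.4% (84.2 to 88.4%) and 85.8% (83.5 to 87.8%) from 14 to 20 Mb, and 91.8% (90.4 to 93.0%) and 91.2% (89.8 to 92.5%) on distal chromosome 12. Chains of at least 10 peaks with steps under 2 kb took in 51.2% and 53.5% of the peaks of the arm on 5.02% and 5.34% of its length. From 14 to 20 Mb such chains held 34.6% and 32.5% of the peaks, and on distal chromosome 12 48.7% and 46.6%. Chains were counted in these regions only, so no share over the whole series stands beside them. The values of the arm were the highest of the 3 regions in both lists. The density of peaks put the regions in the same order, and spacing at equal density was not tested. For near neighbours the intervals of the arm overlapped those of distal chromosome 12 and lay above those of 14 to 20 Mb.

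The chains alternated with long bare stretches. No peak of either list lay in the 144 kb from 23500328 to 23644637, the 114 kb from 24584823 to 24699173 or the 105 kb from 21722125 to 21826644. The longest bare stretches of the comparison regions were of similar length, 157 kb from 14 to 20 Mb and 158 kb on distal chromosome 12.

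**Figure D4:**
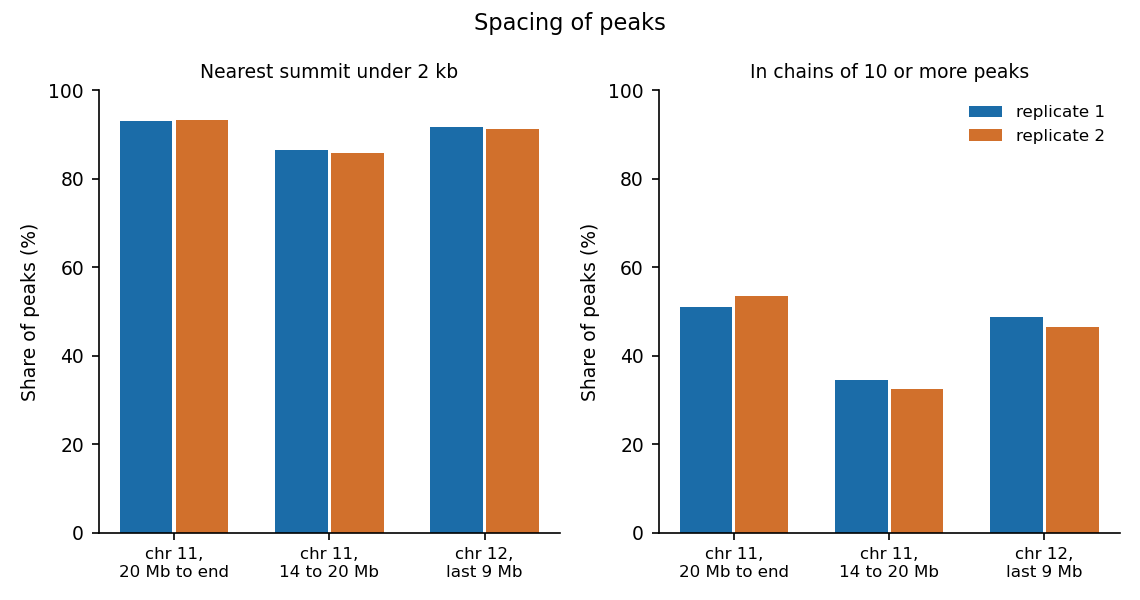
Share of peaks with another summit of the same list under 2 kb away (left) and share in chains of 10 or more peaks with steps under 2 kb (right), in each list. The chromosome 11 arm has 93.1% and 93.4% on the left and 51.2% and 53.5% on the right, each above both comparison regions.

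By the mean number of peaks over both lists, the 5 largest chains were 12.8 to 19.5 kb long in replicate 1. The chain from 21421428 to 21440924 held 44 peaks in replicate 1, and its counterpart in replicate 2, which began at 21425289, held 37. Those beginning in replicate 1 at 22392267 (39 and 41 peaks), 27627618 (42 and 35), 28382663 (38 and 38) and 23874432 (37 and 38) followed. Median folds of these 5 chains were 1.76 to 1.96 in replicate 1, on both sides of the arm's median of 1.82, and their median backgrounds were 9.16 to 11.9 times the average. Around 26 Mb the lists divided the peaks differently: replicate 1 had a chain of 39 peaks from 26004004 and replicate 2 one of 36 from 25993710.

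Each of these 5 chains held peaks with the same tag numbers far apart within it. Between 27629027 and 27640837, which lie 11810 bp apart, both summits had 334 tags in replicate 1 and 318 in replicate 2, with equal folds of 1.78 and 1.85. Between 22395884 and 22407618 the distance was 11734 bp, with 315 and 304 tags, and a second pair in the chain had the same distance. In the chain from 28382663, 3 pairs were each 11806 bp apart. The pair at 23877944 and 23889824, given above by its start positions, was 11880 bp apart. In the chain from 21421428, 1 of 3 such pairs was 11562 bp apart.

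Distances of this size recurred over the arm. Pairs of shared peaks with equal tags in both lists, 11.5 to 12 kb apart, numbered 14, more than in any other step of 500 bp up to 20 kb, and in 11 of them the folds were equal in both lists too. They lay at 9 places, from 20156923 to 28395344. The next most frequent step in the arm was 7 to 7.5 kb, with 12 pairs. Distal chromosome 12 had 4 pairs at 11.5 to 12 kb and 21 at 7 to 7.5 kb. The stretch from 14 to 20 Mb had 3 and 0. Such pairs up to 20 kb apart totalled 75 in the arm, 83 on distal chromosome 12 and only 23 from 14 to 20 Mb. The step of 11.5 to 12 kb held 18.7% of them in the arm, 4.82% on distal chromosome 12 and 8.2% over the series. From 14 to 20 Mb its share, 3 of 23, lay between those of the arm and the series. The counts alone therefore do not set the arm apart from the adjoining stretch. Over the whole series 11.5 to 12 kb took rank 3 with 257 pairs, behind 8.5 to 9 kb (494) and 7 to 7.5 kb (321). The step was picked after the distances were seen. Which sequence repeats at this distance was not tested.

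Runs of peaks were repeated with their order and spacing. Pairs with equal tags in both lists and at most 200 kb apart numbered 105 in the arm and took in 193 of its 1558 shared peaks (12.4%). Of these pairs 42 fell into 10 blocks, defined as at least 3 pairs with distances equal to within 10 bp and first copies within 20 kb. Distal chromosome 12 had 99 pairs (182 of 1267 peaks, 14.4%) with 51 in 11 blocks. From 14 to 20 Mb there were 29 pairs (58 of 718 peaks, 8.08%) with 6 in 2 blocks. The blocks took in 5.01% of the shared peaks of the arm, 8.05% on distal chromosome 12 and 1.67% from 14 to 20 Mb. The shares of peaks in such pairs and blocks were taken for these regions only, not for the whole series. In 9 of the 10 blocks of the arm the copies were 5 to 15 kb apart. The blocks with distances of 5505 and 11010 bp share summits between 25917934 and 25930533, so the same place is counted in both.

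The block with most pairs lay at 26004087 to 26007944 and again 7040 or 7041 bp further on, from 26011128 to 26014984. Its 9 pairs had equal tags in both lists by the rule that picked them, and in 8 the folds were equal in both too. In replicate 1 each copy held 11 peaks, whose tags ran from 187 to 445 and whose folds ran from 1.29 to 2.27. In replicate 2 each held 9, with 170 to 430 tags and folds of 1.44 to 2.13. The copies thus had equal tags at every listed summit, and equal backgrounds except at the summit with 170 tags in replicate 2 (87.0 and 88.3).

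**Figure D5:**
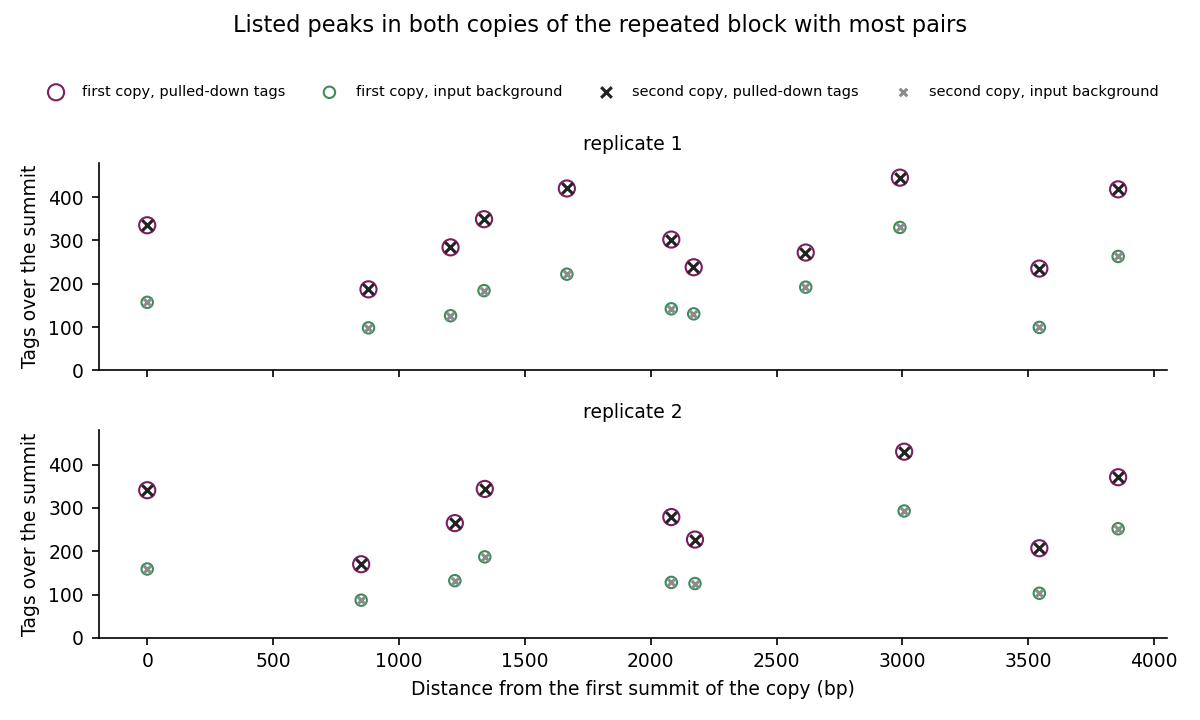
Pulled-down tags and input background at every listed peak of both copies of the repeated block with most pairs, by distance of the summit from the first summit of its copy, in each list. Circles (first copy) and crosses (second copy) coincide at all 11 summits of replicate 1 and, in tags, at all 9 of replicate 2.

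Just before it lay another block, from 25993752 to 25995799, repeated 6124 bp further on with 5 pairs and equal folds in each. Both blocks and their copies held a peak with 445 and 430 tags and folds of 1.29 and 1.44. In all, 29 shared peaks of the series on 7 of its sequences carried these tags and folds, 4 of them in the arm and 8 on distal chromosome 12. From 25917934 on, summits with 240 and 239 tags and with 451 and 440 tags recurred at steps of 5505 bp, 3 times each. The latter tag numbers were found at 74 shared peaks of the series. Among the 10 blocks of the arm the largest distance between copies was 50753 bp, from 20158174 and from 20208927. There the tags were equal in 4 pairs but the folds of the copies were not, at 2.18 and 2.44 in the first pair of replicate 1.

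By the strict rule, with tags, fold and width equal in both lists and a copy within 200 kb, 63 of the 1558 shared peaks of the arm were identical (4.04%, Wilson interval 3.17 to 5.14%), beside 4.14% of all shared peaks. On distal chromosome 12 there were 66 of 1267 (5.21%, 4.12 to 6.57%), and from 14 to 20 Mb 6 of 718 (0.836%, 0.384 to 1.81%). By this rule the arm was near the series, and its interval overlapped that of distal chromosome 12 and lay above that of the adjoining stretch. The share in the arm depended on the list: with equality asked in replicate 1 alone it was 4.81%, and in replicate 2 alone 7.51%. The 63 peaks formed 31 sets, of which 1 held 3 peaks and the others 2. With copies at any distance 168 peaks (10.8%) had equals elsewhere, beside 11.3% of all shared peaks. For 118 of these a member lay on another sequence, and for 26 on chromosome 12. Where copies share reads, enrichment at one of them cannot be told from enrichment at the other, and the placement of reads with several matches is not stated in the labels or headers used here. This bears on the chains above and on many of the named peaks. The tag numbers of 23877920 and 23889800 occurred at 7 shared peaks of the series on 5 sequences, and those of 28639003 at 9 on 8, with folds from 2.69 to 3.22 in replicate 1. Those of the top peak, 22338244, occurred at 4 on 3 sequences, with folds from 2.24 to 4.56 in replicate 1. Among the widest peaks, those of 28384524 occurred at 37 on 13 sequences and those of 23995130 at 20 on 10. Equal tag numbers can also arise by chance, and which of these places share sequence was not tested.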

How the data were processed

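Peak lists of both pulled-down libraries were used as deposited. Cutadapt and MACS2 are named in the submitters' processing notes. Per the file headers the authors used MACS2 2.2.5 separately for each replicate and its input, with q at 0.05, a genome size of 400 Mb, tags and fragments of 50 bp, and at most 5 tags kept per position, which caps a position at 500. An aligner and a build are not named by those notes or headers. The deposited pileup is a signal, tags over the summit scaled to the smaller library (by 0.960 and 0.981). The deposited fold, a ratio, divides pileup by local background after adding 1 to each. The deposited −log10 p and q values come from a Poisson test. Positions, lengths and summits are in bp.

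Tags were the pileup divided by the scale (100% whole within 0.02). Background was recomputed from pileup and fold, and its average from kept input tags. Regions were cut by summit. Chromosomes 11 and 12 ended, for this purpose, with their last listed peak, 29010020 and 27458900, so distal chromosome 12 began at 18458900. Sharing, neighbours, chains and equal values were described with no test, with Wilson and exact Poisson intervals at 95%. Code was checked on simulated lists. The regions, lists and rules were chosen with earlier results of these data known. Named peaks were the 15 shared ones of highest smaller fold, 10 such at low background, 5 widest, 5 of highest −log10 q, 3 densest and 3 sparsest windows, 5 largest chains, 3 longest bare stretches and the largest identical sets. The neighbourhood of the top peak, the distance steps and the repeated blocks were chosen after values were seen. Alternatives were the boundary, threshold, overlap rule, background limit, distances and joining. Python 3.11.15, NumPy 2.4.6, pandas 2.3.3, SciPy 1.17.1 and Matplotlib 3.10.9 were used.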

Additional observations from a re-analysis of the deposited data

How the results depend on the processing

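Neither comparison of density turned as a mean over the lists. The arm was denser than both regions in 8 of 8 alternatives each, by 1.07 to 1.39-fold (14 to 20 Mb) and 1.06 to 1.59-fold (chromosome 12). The 8 include leaving out each replicate, which only repeats the value of the other list. With low-background peaks only, the ratios fell to 1.07 and 1.06, in 1 list just under 1. With the boundary at 21 Mb they were 1.31 and 1.18 (density 218 per Mb, background 8.73 times). With −log10 q of at least 5 they were 1.39 and 1.23, with 189 peaks per Mb, 75.7% shared, a median fold of 1.92, 2.93% at low background and 92.2% near a neighbour. Joining summits under 200 bp apart gave 1.27 and 1.17. Added after seeing the data, medians over windows gave 1.28 and 1.59, and identical copies counted once gave 1.32 against 14 to 20 Mb. The share found in both lists was 71.1% with 50% of the longer peak. Averaged over the listed sequences, the background was 8.01 times. With a limit of 3 times, 8.21% were at low background. Neighbours lay within 1 kb for 87.0% and within 5 kb for 96.5%. Identical local copies made up 7.51% with any width. With at least 4 pairs, 6 blocks remained. The other 33 of 59 alternatives differed by less than the lists or the interval. Among them, leaving out a replicate moves a mean over the lists by less than the lists differ, whatever the data. Those alternatives could not have come out otherwise and say nothing about robustness. Without either replicate the density was 222 to 224, its ratios 1.33 to 1.35 and 1.20 to 1.21, and identical local copies 4.81 to 7.51%. No paired analysis was possible because each list gives finished peaks, with its own input already used. At this depth low-background peaks rest on 34 tags or more.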
